A study of Homo sapiens with 12 samples.

Results

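The genes that license and build the DNA replication fork were followed in 2 human cancer cell lines treated with an extract of the red seaweed Hypnea musciformis (HME). The 43 genes, chosen by name among 57736 genes listed in the count files, comprised the 6 subunits of the origin recognition complex (ORC), the 3 loading genes CDC6, CDT1 and GMNN, the 6 subunits of the MCM2-7 helicase, MCM10 and CDC45, the 4 GINS subunits, 8 subunits of the replicative polymerases and primase, PCNA and the 5 subunits of its loader RFC, the 3 subunits of the single-strand binding protein RPA, FEN1 and LIG1 of the lagging strand, and RRM1, RRM2 and TYMS of nucleotide supply. All 43 passed the filter on low counts in every comparison. The RNA came from HepG2, a line of liver hepatocellular carcinoma cells, and Ls174, a line of colon cancer cells, both given as wild type and grown in serum-supplemented medium. In each line, 3 libraries came from untreated cells and 3 from cells kept for 24 h with HME at the concentration that the labels call IC50 and give as 0.7 mg/ml (the methods of the study name a slightly higher one). Each line stands for 1 culture line only, no vehicle is named for the untreated cells, and the measurement was 3′ end RNA sequencing, in which reads are counted over the ends of transcripts.

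In a dividing cell, ORC marks the origins of replication, and CDC6 and CDT1 then place the MCM2-7 ring on the DNA while GMNN (geminin) blocks CDT1 so that an origin is not loaded again in the same cycle. Once S phase begins, CDC45 and GINS join the ring to form the active helicase, MCM10 helps to start it, RPA coats the unwound strand, and RFC loads the PCNA clamp that holds the polymerases. Many of these genes are transcribed under E2F factors around the passage from G1 to S phase and are used as signs of proliferation in cultured and tumour cells.

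The promoters of the genes are shown first because the E2F pattern is what many of them share in sequence. RefSeq promoter windows (build GRCh38.p14, 250 bases before to 50 after the start) were found for 38 of the 43 genes, and 19 of the 38 (50%) held 1 of the 4 E2F patterns searched on both strands (TTTCCCGC, TTTCGCGC, TTTGCCGC and TTTGGCGC), against 3.99% of 27305 genes with a window and 5.78% of 11730 other genes whose windows had a GC content at or above the lower quartile of the 38. The pattern was about as frequent among the genes called lower in HepG2 as among the rest: it was present in 6 of 13 called genes (46.2%) and in 13 of 25 that were not called (52.0%). CCAAT was present in 60.5% of the 38 windows and in 39.7% of all, GGGCGG in 73.7% and 48.3%, and TTTGAA in 2.63% and 18.2%. The windows of MCM6 and GINS1, which were called lower in HepG2, of MCM2, which was not, and of RFC4, whose p-value was the lowest of the 43, illustrate this, with matches to the E2F patterns in capitals.
MCM6 (chr2:135876394-135876693, minus strand): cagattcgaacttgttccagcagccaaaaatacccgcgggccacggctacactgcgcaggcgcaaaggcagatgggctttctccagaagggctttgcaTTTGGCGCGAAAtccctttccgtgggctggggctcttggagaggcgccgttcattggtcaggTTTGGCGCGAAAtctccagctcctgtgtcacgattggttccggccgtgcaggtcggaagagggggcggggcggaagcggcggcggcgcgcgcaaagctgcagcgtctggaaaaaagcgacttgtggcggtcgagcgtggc
GINS1 (chr20:25407423-25407722, plus strand): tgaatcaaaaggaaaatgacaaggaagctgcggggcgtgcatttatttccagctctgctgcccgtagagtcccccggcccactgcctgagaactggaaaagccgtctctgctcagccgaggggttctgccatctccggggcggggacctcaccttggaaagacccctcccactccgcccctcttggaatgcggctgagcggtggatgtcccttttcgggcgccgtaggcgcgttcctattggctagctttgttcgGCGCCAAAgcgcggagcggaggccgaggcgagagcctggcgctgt
MCM2 (chr3:127598161-127598460, plus strand): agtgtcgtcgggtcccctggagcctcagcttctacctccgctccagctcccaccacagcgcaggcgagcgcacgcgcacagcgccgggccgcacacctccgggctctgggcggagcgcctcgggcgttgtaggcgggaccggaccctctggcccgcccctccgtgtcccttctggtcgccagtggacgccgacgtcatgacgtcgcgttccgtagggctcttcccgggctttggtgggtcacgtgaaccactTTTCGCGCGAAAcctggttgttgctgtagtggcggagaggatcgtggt
RFC4 (chr3:186806433-186806732, minus strand): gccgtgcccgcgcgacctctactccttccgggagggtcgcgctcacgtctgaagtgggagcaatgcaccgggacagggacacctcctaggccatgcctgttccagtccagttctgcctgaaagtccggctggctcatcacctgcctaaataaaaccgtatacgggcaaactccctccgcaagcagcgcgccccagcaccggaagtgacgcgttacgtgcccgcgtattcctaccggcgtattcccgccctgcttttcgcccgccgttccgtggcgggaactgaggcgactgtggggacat
MCM6 carried 4 overlapping matches in 2 blocks with the same letters, MCM2 carried 2 overlapping matches just after its start, GINS1 carried 1, and RFC4 carried none.

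The libraries held 1790841 to 3656662 counts, and the 43 genes together took 0.285 to 0.301% of them in untreated HepG2, 0.155 to 0.173% in treated HepG2, 0.391 to 0.436% in untreated Ls174 and 0.350 to 0.368% in treated Ls174. Liver markers fitted the label of HepG2, with a summed level of 9 genes of 10391 to 17869 CPM (a count relative to the total of its library, which was scaled by TMM within each line), and 10 colon markers summed to 302 to 468 CPM in Ls174 against 69.1 to 195 CPM in HepG2. Of the colon markers, VIL1 made up most of the HepG2 sum (52.0 to 168 CPM, against 46.8 to 85.3 CPM in Ls174), while CDX1 stood at 83.1 to 229 CPM in Ls174 and at 0 to 0.725 CPM in HepG2. KRT20, MUC2 and CEACAM5 were at most 6.54 CPM in Ls174. The liver sum in Ls174 was 25.6 to 191 CPM and was highest in Ls174 control 3, where ALB stood at 48.6 CPM while it was at 0 in the other untreated Ls174 libraries. HepG2 HME 2 held 894 CPM of 8 mesenchymal markers, nearly all from COL1A1 and COL1A2, while the other libraries held 0.334 to 15.7 CPM. Of 7 blood markers, LYZ gave nearly all of the 94.2 to 514 CPM in HepG2 while PTPRC and CD3E were at 0 in every library, and 4 endothelial markers summed to at most 4.28 CPM. One control of each line stood apart in the replication genes themselves: HepG2 control 2 differed from the mean of the other controls by more than 1 on the log2(CPM + 1) scale in 18 of the 43 genes, 9 up and 9 down, and Ls174 control 1 in 8, 5 up and 3 down, while HepG2 controls 1 and 3 differed by that much from each other in 4 genes and Ls174 controls 2 and 3 in 0. The study also describes 1 deviating control in each line in its plot of the whole transcriptome, without naming it. HepG2 control 2 had 1874122 counts, against 3656662 and 2442355 in the other HepG2 controls, though HepG2 HME 3 had fewer still (1790841). Ls174 control 1 had a count in 13885 genes, against 17139 and 18324 in the other Ls174 controls. Changes of called replication genes that lose the call or move by over 1.5 times without HepG2 control 2 are given with and without it.

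**Figure D1:**
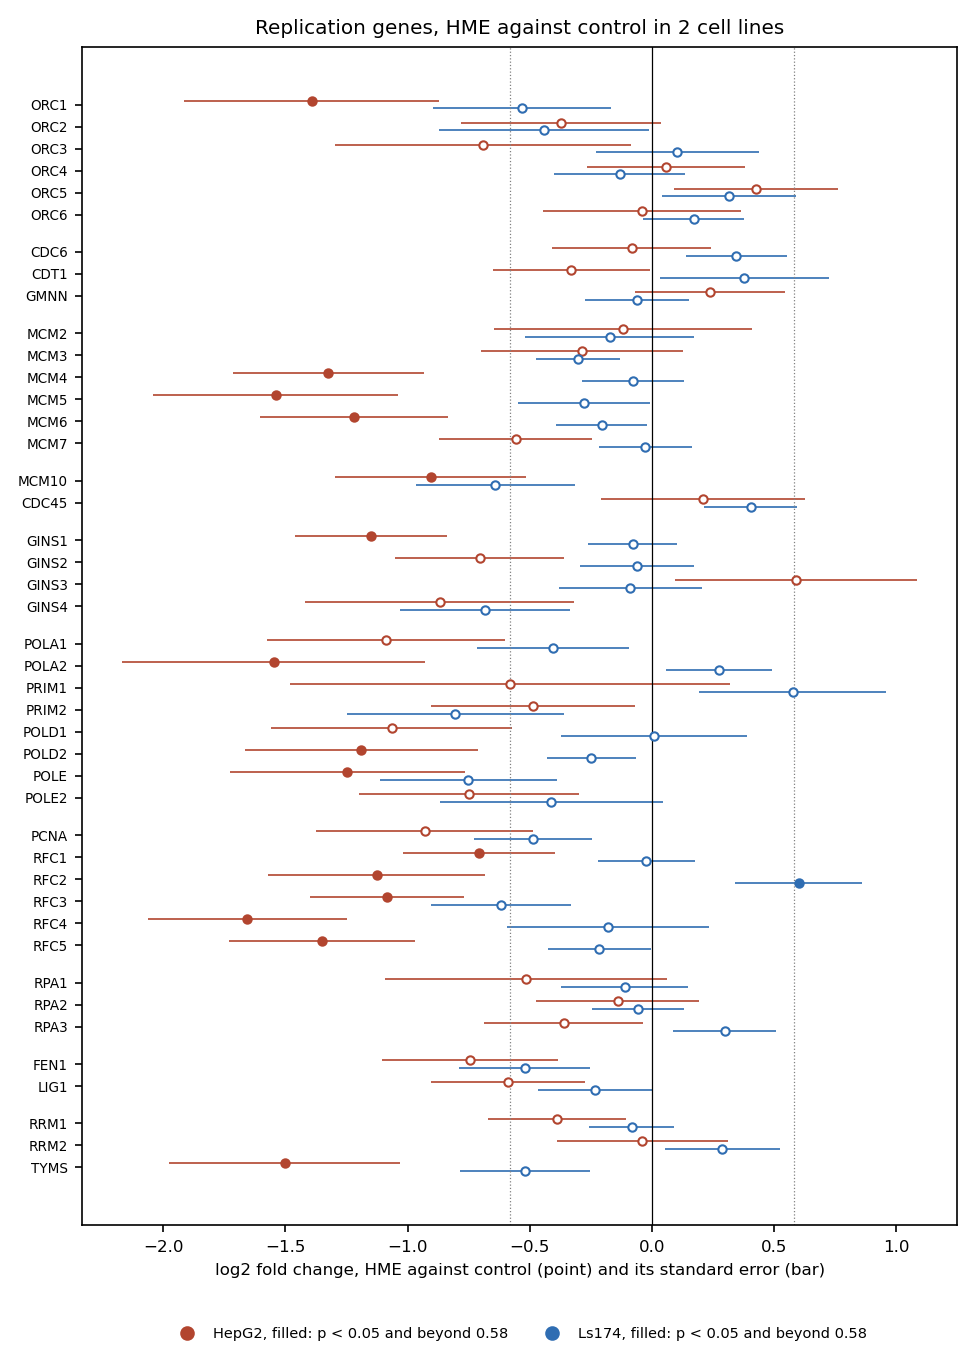
Log2 fold change (HME against control, horizontal axis) of each of the 43 genes (vertical axis, grouped by complex) in HepG2 (red) and Ls174 (blue), with bars of 1 standard error (3 libraries a group). Filled points passed p under 0.05 and a change beyond 0.58 (dotted lines): 15 genes in HepG2, all to the left of 0, and RFC2 in Ls174, to the right.

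In HepG2, RFC subunits, 3 subunits of the MCM ring, polymerase subunits, GINS1, MCM10, ORC1 and TYMS were called lower after HME, and none of the loading genes, RPA subunits or lagging strand genes was called. The edgeR quasi-likelihood test called 15 of the 43 genes lower (34.9%) and 0 higher when the unadjusted p was below 0.05 and the log2 change exceeded 0.58 up or down, the limits that the study itself used. Among all 11343 genes tested, the same limits called 10.9% lower and 11.3% higher. The median log2 fold change was −0.71 over the 43 genes and −0.04 over all genes tested, and 38 of the 43 changes were negative, against 52.3% of all genes. With the Benjamini-Hochberg adjustment over all genes, 0 of the 43 were called, where 0.538% of all genes were called lower and 2.77% higher. DESeq2 called 6 of the 43 at an adjusted p under 0.05, namely GINS1, MCM4, MCM5, RFC4, RFC5 and TYMS. The treated and untreated libraries did not overlap in 22 genes that were lower (14.2% of all genes) and in 1, ORC5, that was higher (16.6% of all genes). In bulk RNA, fewer cells in S phase and less RNA of these genes per cell cannot be told apart.

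Within ORC, 1 of the 6 subunits was called. ORC1, the ATPase subunit that is itself an E2F target, stood at 4.82, 10.4 and 13.0 CPM in the untreated HepG2 libraries and at 2.57, 3.60 and 4.49 CPM after HME. All treated values lay under the lowest untreated one. The log2 fold change was −1.39 ± 0.52 (SE, adjusted p = 0.164, edgeR). The counts behind it were low, 17 to 36 reads in the controls and 7 to 11 after HME. The primers that the study used for RT-qPCR of ORC1 lie inside the only region in which its reads were counted, in its 3′ UTR.
Forward primer (hg19 chr1:52838604-52838624, minus strand): gccaagctagtctacaaagca
Reverse primer (hg19 chr1:52838540-52838561, plus strand): acatgagagccatttccattca
The region runs over chr1:52838304-52838852 on the minus strand, so the count and the amplicon read the same end of the transcript. Of the other 5 subunits, none was called: ORC2 to ORC6 changed by −0.69 to 0.43, and ORC5 was 9.06 to 12.5 CPM in the controls and 13.2 to 15.7 CPM after HME (adjusted p = 0.482, edgeR).

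None of the loading genes was called. CDC6, the loader ATPase, stood at 49.6, 26.3 and 46.0 CPM untreated and 37.1, 41.6 and 37.1 CPM treated, CDT1 changed by −0.33 ± 0.32 and GMNN by 0.24 ± 0.31 on the log2 scale, and the groups overlapped in all 3. Their summed level was 181 ± 24.98 CPM (SD, n = 3) untreated and 183 ± 5.92 CPM treated.

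Of the 6 subunits of the MCM2-7 ring, 3 were called lower. Summed, the 6 stood at 721 ± 70.7 CPM untreated and 438 ± 24.2 CPM treated, and the lowest untreated library (639 CPM) stood above the highest treated one (466 CPM). MCM4 stood at 127, 270 and 112 CPM untreated and 61.0, 70.1 and 71.3 CPM treated. Its groups did not overlap, with the highest value in control 2, and its log2 fold change was −1.32 ± 0.39 (adjusted p = 0.0942, edgeR), or −0.80 without control 2. MCM5 stood at 74.5, 275 and 102 CPM untreated and 39.3, 47.2 and 68.5 CPM treated. Its change of −1.54 ± 0.50 (adjusted p = 0.119, edgeR) again had its highest value in control 2, and the treated values lay under all 3 untreated ones. Without control 2 it was −0.76 and still called. MCM6 stood at 31.1, 14.1 and 22.1 CPM untreated and 8.46, 11.1 and 9.55 CPM treated, a change of −1.22 ± 0.38 (adjusted p = 0.111, edgeR) in which control 2 was the lowest control. MCM7 stood at 98.6, 95.4 and 139 CPM untreated and 90.5, 63.9 and 71.9 CPM treated, without overlap, but its change of −0.56 ± 0.31 missed both limits (adjusted p = 0.318, edgeR), and without control 2 it was −0.64 and called. MCM3 stood at 118, 65.5 and 203 CPM untreated and 127, 98.6 and 92.1 CPM treated. MCM2 stood at 190, 37.3 and 188 CPM untreated and 102, 130 and 152 CPM treated, so that control 2 lay under every treated library while the other controls lay above them. Without control 2 the change of MCM2 was −0.55, against −0.12 with it.

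Of the firing factors and GINS, MCM10 and GINS1 were called. MCM10 stood at 21.2, 21.4 and 14.5 CPM untreated and 6.25, 13.4 and 10.7 CPM treated (−0.91 ± 0.39, adjusted p = 0.211, edgeR), and without control 2 its change of −0.81 was not called. CDC45 did not pass, at 28.4, 12.2 and 10.9 CPM untreated and 19.1, 20.3 and 21.3 CPM treated. GINS1 (PSF1), a subunit of the ring that holds CDC45 on the helicase, stood at 76.6, 69.1 and 48.9 CPM untreated and 30.2, 32.1 and 25.3 CPM treated (−1.15 ± 0.31, adjusted p = 0.076, edgeR). Its controls and treated libraries were well apart. GINS2 stood at 71.6 to 75.0 CPM untreated and 32.0 to 65.5 CPM treated, also without overlap (adjusted p = 0.259, edgeR), while GINS3 and GINS4 stood at 3.06 to 12.3 CPM in the controls and were not called.

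All 8 polymerase and primase genes had negative changes in HepG2, from −0.49 to −1.55, and 3 were called: POLA2, the B subunit of polymerase alpha, POLD2, the accessory subunit of polymerase delta, and POLE, the catalytic subunit of polymerase epsilon. POLA2 stood at 9.40, 21.4 and 9.42 CPM untreated and 3.68, 7.86 and 1.12 CPM treated (−1.55 ± 0.62, adjusted p = 0.185, edgeR). Its treated counts were low, at 10, 24 and 2 reads. POLE stood at 15.4, 31.8 and 17.8 CPM untreated and 8.83, 13.4 and 3.93 CPM treated (−1.25 ± 0.48, adjusted p = 0.174, edgeR). POLD2 stood at 42.9, 163 and 62.0 CPM untreated and 41.6, 36.0 and 38.8 CPM treated (−1.19 ± 0.48, adjusted p = 0.185, edgeR). The controls other than control 2 lay close to the treated libraries in POLD2, and without control 2 its change was −0.41 and not called. The calls of POLA2 and POLE were lost as well without control 2, with changes of −1.04 and −0.85, so that none of the 3 polymerase calls was made without that library. The 8 genes summed to 171 ± 86.0 CPM untreated and 78.3 ± 8.42 CPM treated, and without control 2 the untreated mean was 121 CPM.

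RFC and its clamp formed the group with the most calls. All 6 genes were lower without overlap, 5 of them were called, and the median log2 fold change was −1.11. RFC4 stood at 13.0, 15.3 and 17.0 CPM untreated and 5.88, 5.24 and 2.81 CPM treated (−1.66 ± 0.41, adjusted p = 0.0590, edgeR). Its treated counts were low, at 16, 16 and 5 reads. RFC5 stood at 26.8, 32.4 and 20.3 CPM untreated and 6.62, 13.1 and 11.2 CPM treated (−1.35 ± 0.38, adjusted p = 0.0845, edgeR). RFC3 stood at 29.6, 25.7 and 33.3 CPM untreated and 15.1, 11.8 and 15.2 CPM treated (−1.08 ± 0.32, adjusted p = 0.0911, edgeR). In these 3 genes every control, control 2 included, lay above every treated library. RFC2 stood at 18.8, 36.7 and 16.3 CPM untreated and 6.62, 14.4 and 11.2 CPM treated (−1.13 ± 0.44, adjusted p = 0.181, edgeR), and its change of −0.69 without control 2 was not called. RFC1, the large subunit, stood at 76.9, 59.3 and 62.3 CPM untreated and 51.9, 34.7 and 34.8 CPM treated (−0.71 ± 0.31, adjusted p = 0.217, edgeR). PCNA, the clamp, stood at 248, 663 and 213 CPM untreated and 195, 202 and 192 CPM treated. Its change of −0.93 ± 0.44 did not pass (adjusted p = 0.252, edgeR), and without control 2, the only high value, it was −0.22. The counted region of RFC4 (chr3:186507472-186507834, minus strand, hg19) lies wholly inside a region of EIF4A2 on the other strand, which held 9078 counts in all against 561 for RFC4. EIF4A2 moved the other way, by 1.31 on the log2 scale in HepG2.

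RPA and the lagging strand genes were not called. RPA1, RPA2 and RPA3 changed by −0.51, −0.14 and −0.36 on the log2 scale with overlapping groups. FEN1, the flap endonuclease, stood at 132, 228 and 128 CPM untreated and 71.7, 95.3 and 124 CPM treated (adjusted p = 0.256, edgeR), and LIG1, the ligase, at 75.7, 70.4 and 68.8 CPM untreated and 38.2, 41.6 and 63.5 CPM treated (adjusted p = 0.295, edgeR), both without overlap. Among the nucleotide genes, TYMS, the thymidylate synthase, stood at 205, 628 and 200 CPM untreated and 113, 138 and 112 CPM treated (−1.50 ± 0.47, adjusted p = 0.111, edgeR), and its treated libraries lay under all controls. Without control 2, where it was highest, the change of TYMS was −0.72 and still called. RRM1 and RRM2, the subunits of ribonucleotide reductase, changed by −0.39 and −0.04 on the log2 scale.

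**Figure D2:**
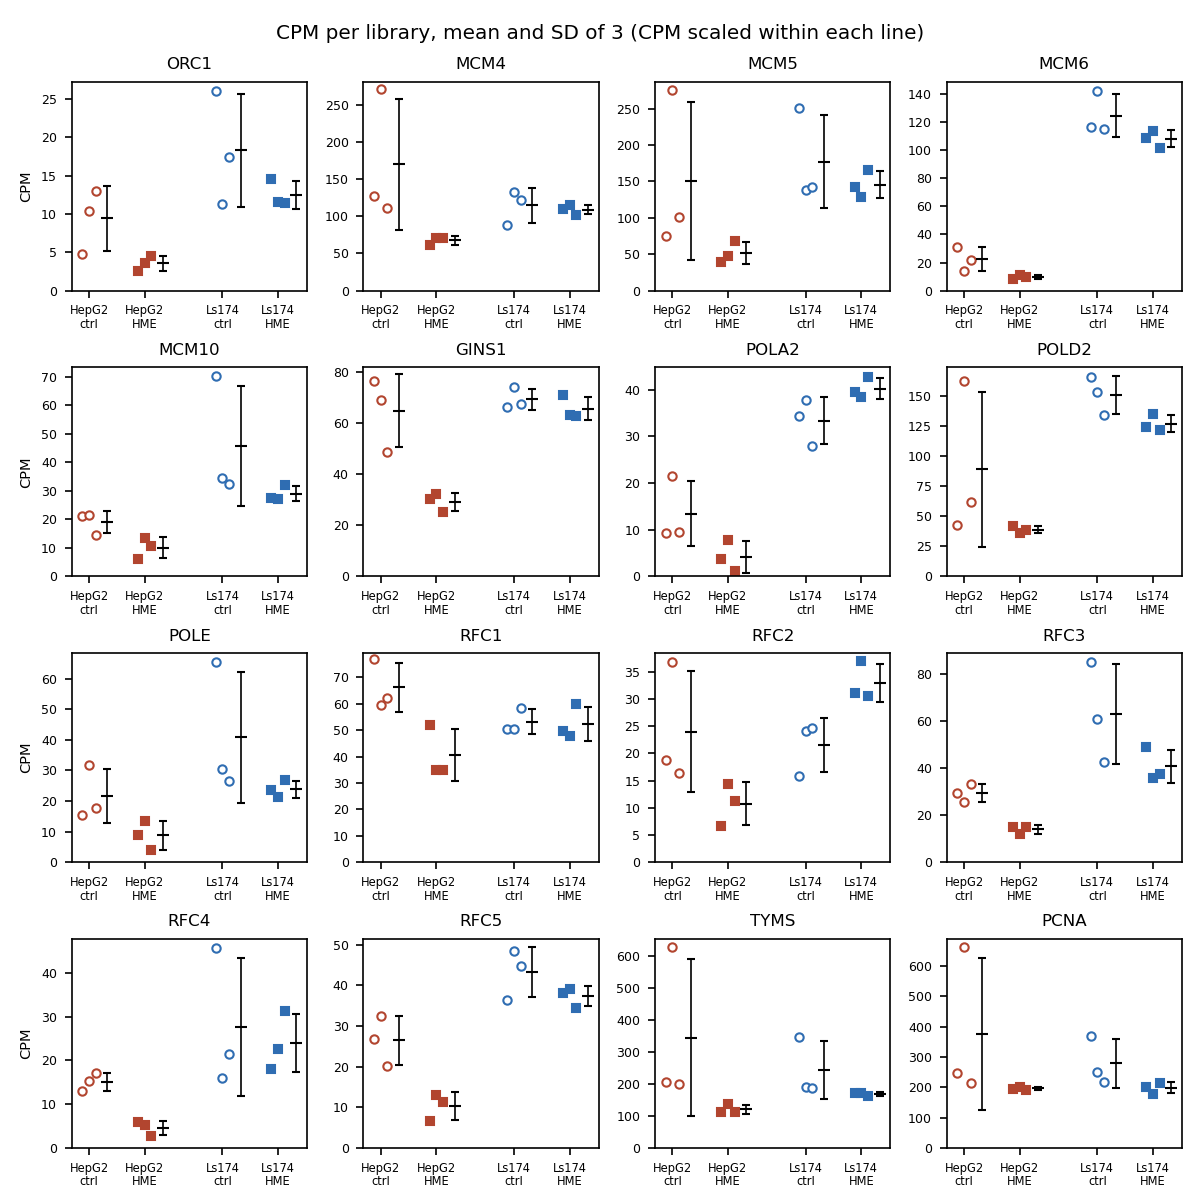
CPM (vertical axis, linear, from 0) of the 15 genes called in HepG2 and of PCNA in each library, for untreated (open circles) and HME-treated (filled squares) HepG2 (red) and Ls174 (blue) cells, with the mean and SD of 3 in black. In HepG2 every treated library lay under every control in all 16 genes, and the tall bars of MCM4, MCM5, POLD2, TYMS and PCNA come from 1 high control.

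Which calls rest on 1 library was examined by leaving each out. GINS1, MCM4, RFC3, RFC4, RFC5 and TYMS, 6 of the 15, were called whichever of the 6 libraries was left out. Without control 2, 14 genes were called lower (32.6%, against 10.1% of all genes), but only 10 of the 15 were among them. MCM10, POLA2, POLD2, POLE and RFC2 lost the call, and 4 other genes, MCM7, ORC2 (−0.69), ORC3 (−1.05) and GINS4 (−1.19), gained it. In that fit GINS1, MCM6, RFC3 and RFC4 passed the adjusted p. Leaving out control 1 gave 13 genes called lower (30.2%, against 12.3% of all genes), with MCM6, MCM10 and RFC1 lost and PCNA gained. Leaving out control 3 gave 16 (37.2%, against 11.6% of all genes), with ORC1 and RFC1 lost and PCNA, POLA1 and POLD1 gained. Without HME 1, 8 were called lower (18.6%, against 7.06% of all genes), and MCM5, MCM10, ORC1, POLA2, POLD2, POLE and RFC2 were lost. Without HME 3, 9 were called lower (20.9%, against 6.14% of all genes), and MCM10, POLA2, POLD2, POLE, RFC1 and RFC2 were lost. Without HME 2, the library with the mesenchymal markers, 13 were called lower (30.2%, against 6.81% of all genes). ORC1, POLD2 and RFC1 were lost there and GINS2 gained, and the change of POLA2 was then −2.33. Summed over all 43 genes, HepG2 stood at 2508, 3456 and 2522 CPM untreated and 1731, 1784 and 1738 CPM treated, a ratio of 0.619, and without control 2 the ratio was 0.696.

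**Figure D3:**
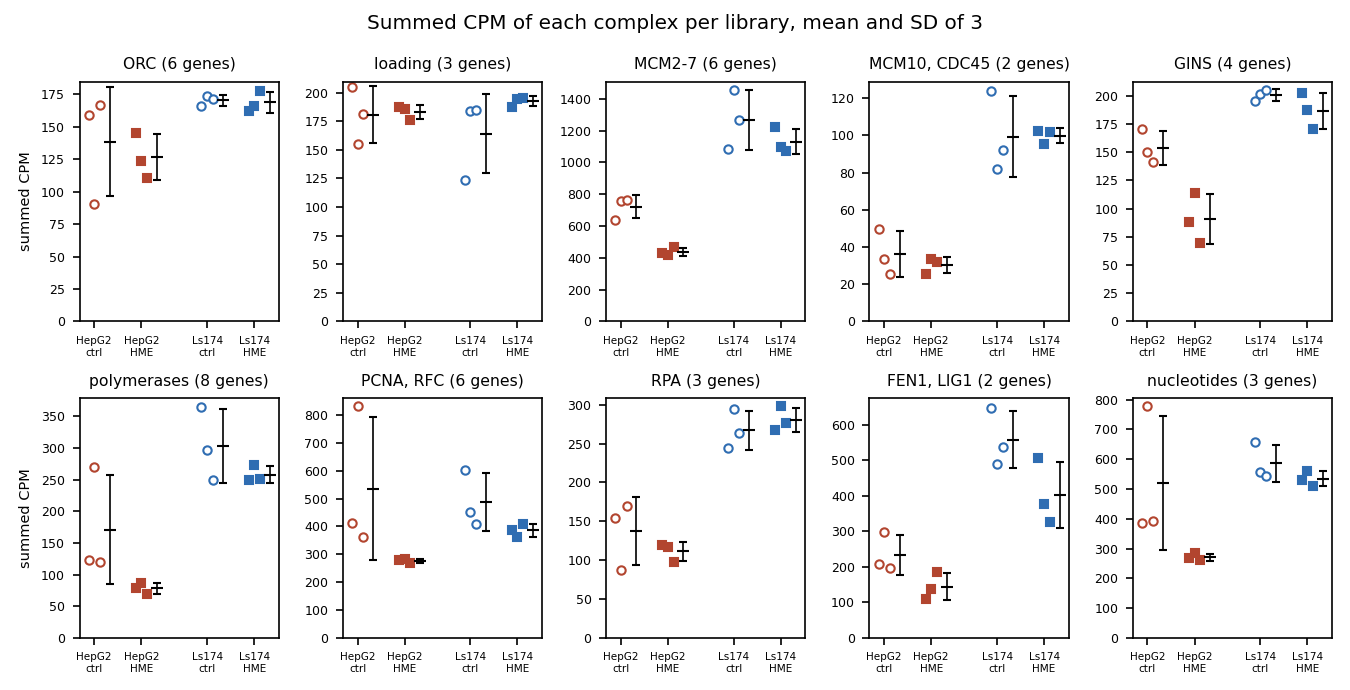
Summed CPM of each complex (vertical axis, from 0; the number of genes is in each title) per library, for untreated (open circles) and HME-treated (filled squares) HepG2 (red) and Ls174 (blue) cells, with the mean and SD of 3 in black. The MCM2-7 sum of treated HepG2 (421 to 466 CPM) lay under every control (639 to 765 CPM), and the loading genes overlapped.

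In Ls174, 1 of the 43 genes was called after HME. RFC2 was called higher and 0 were called lower, where 4.11% of all 11319 genes tested were called higher and 7.85% lower. RFC2 stood at 15.8, 24.1 and 24.6 CPM untreated and 31.1, 36.9 and 30.6 CPM treated (0.60 ± 0.26, adjusted p = 0.367, edgeR), and it was called in none of the 6 fits that each left out 1 library. Those fits called 0 to 5 genes. Without control 3, 5 were called lower (MCM10, PCNA, POLE, RFC3 and TYMS, 11.6% against 9.21% of all genes). Without control 1, 2 were called lower (ORC2 and GINS4, 4.65% against 9.23% of all genes). With all 6 libraries none of the 43 passed the adjusted p, by edgeR or by DESeq2. By edgeR, 0.866% of all genes were called lower and 0.318% higher there, and 1 of the 43 had an unadjusted p under 0.05. The groups did not overlap in 7 genes that were lower (MCM3, MCM6, MCM10, GINS4, PRIM2, PCNA and TYMS) and in 3 that were higher (CDC45, POLA2 and RFC2), against 12.3% and 11.5% of all genes. The median log2 fold change was −0.11 over the 43 genes and −0.003 over all, and 31 of the 43 changes were negative, against 50.1% of all genes.

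The MCM2-7 sum was 1268 ± 188 CPM untreated and 1129 ± 78.8 CPM treated in Ls174, with overlap. MCM2 stood at 228, 582 and 441 CPM untreated and 483, 316 and 312 CPM treated, with the lowest value in control 1. MCM3 stood at 172, 177 and 175 CPM untreated and 134, 144 and 147 CPM treated (−0.30 ± 0.17, adjusted p = 0.479, edgeR), a small difference without overlap. MCM4 stood at 88.7, 133 and 122 CPM untreated and 109, 115 and 102 CPM treated. MCM5 stood at 251, 138 and 143 CPM untreated and 142, 129 and 166 CPM treated, and its untreated values other than control 1 lay within the treated range. MCM6 stood at 116, 142 and 115 CPM untreated and 108, 114 and 102 CPM treated. MCM7 stood at 225, 284 and 271 CPM untreated and 243, 280 and 242 CPM treated. None of the 6 was called.

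Of the 15 genes called in HepG2, 14 were not called in Ls174. ORC1 stood at 26.1, 11.4 and 17.4 CPM untreated and 14.6, 11.5 and 11.4 CPM treated (−0.53 ± 0.36). PCNA stood at 370, 250 and 215.9 CPM untreated and 202, 178 and 215.6 CPM treated (−0.49 ± 0.24), and TYMS at 347, 192 and 189 CPM untreated and 172, 172 and 162 CPM treated (−0.52 ± 0.27), both with their highest value in control 1. GINS1 stood at 66.4, 74.2 and 67.4 CPM untreated and 70.9, 63.1 and 63.0 CPM treated (−0.08 ± 0.18). RFC4 stood at 45.7, 16.0 and 21.5 CPM untreated and 18.1, 22.7 and 31.3 CPM treated, and RFC5 at 36.4, 48.5 and 44.7 CPM untreated and 38.2, 39.2 and 34.5 CPM treated. RFC3 stood at 85.4, 60.9 and 42.8 CPM untreated and 48.8, 35.8 and 37.7 CPM treated (−0.62 ± 0.28, adjusted p = 0.389, edgeR), and POLE at 65.3, 30.4 and 26.5 CPM untreated and 23.6, 21.2 and 26.7 CPM treated (−0.75 ± 0.36, adjusted p = 0.404, edgeR), the latter again with control 1 high. POLA2 stood at 34.3, 37.8 and 27.9 CPM untreated and 39.4, 38.5 and 42.7 CPM treated, and POLD2 at 165, 153 and 134 CPM untreated and 124, 135 and 121 CPM treated. MCM10 stood at 70.2, 34.4 and 32.6 CPM untreated and 27.6, 27.3 and 32.0 CPM treated, with control 1 high once more. RFC1 stood at 50.6, 50.5 and 58.5 CPM untreated and 49.6, 47.7 and 59.8 CPM treated, with overlap. Over all 43 genes the sum was 4106 ± 159 CPM untreated and 3641 ± 164 CPM treated, a ratio of 0.887, or 0.898 without control 1.

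Whether the lines differed in their response was tested by the interaction of line and HME in 1 model. The test called 8 of the 43 genes, all with a change more negative in HepG2 than in Ls174 (18.6%, against 5.75% of 13040 genes in that direction and 7.42% in the other). They were MCM4 (difference in log2 fold change −1.24 ± 0.44), MCM5 (−1.25 ± 0.58), MCM6 (−1.05 ± 0.43), GINS1 (−1.08 ± 0.35), POLA2 (−1.80 ± 0.64), RFC2 (−1.72 ± 0.52), RFC4 (−1.49 ± 0.59) and RFC5 (−1.15 ± 0.43). None passed the adjusted p, which 0.644% of all genes did, and the lowest adjusted p was 0.164 (RFC2, edgeR). Of the 8, GINS1, MCM4, POLA2, RFC2 and RFC5 were called whichever of the 12 libraries was left out, while MCM5, MCM6 and RFC4 were not. Without HepG2 control 2 the difference of MCM5 was −0.58 and not called. Without both HepG2 control 2 and Ls174 control 1, an alternative chosen after seeing the data, 15 genes were called lower (34.9%, against 8.79% of all genes). MCM6 and RFC4 passed the adjusted p there. The difference was not called for ORC1 (−0.88 ± 0.64), TYMS (−0.97 ± 0.54), POLD2 (−0.92 ± 0.51), POLE (−0.49 ± 0.62), RFC1 (−0.71 ± 0.37), RFC3 (−0.49 ± 0.43) or MCM10 (−0.28 ± 0.51). The change was lower in HepG2 than in Ls174 in 35 of the 43 genes, with the calls in both lines side by side as 14 genes called in HepG2 only, RFC2 called in opposite directions, and 28 called in neither. In the interaction fit itself the difference was negative in 36 of the 43 genes, against 51.9% of all genes.

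The untreated lines differed before HME was given. On CPM scaled over the 6 control libraries, 12 genes were called lower in HepG2 than in Ls174 and 1, GMNN, higher, against 15.4% and 19.5% of 11907 genes, with 27.9% of the 43 lower and 2.33% higher. The share lower depended on the libraries: it was 14.0% against 12.7% of all genes without HepG2 control 3, 14.0% against 11% without Ls174 control 2, and 9.30% against 11.2% with the replicate block. By the adjusted p, MCM6 (−2.18 ± 0.38), GINS3 (−2.07 ± 0.49) and FEN1 (−1.26 ± 0.37) were lower in HepG2 and 0 were higher, where 9.33% and 14.2% of all genes were called, and all 3 were called at the limits of p and fold whichever of the 6 libraries was left out. MCM6 stood at 117 CPM on average in Ls174 and 25.4 CPM in HepG2, GINS3 at 39.2 and 9.02 CPM, and FEN1 at 438 and 183 CPM. The other genes called lower were ORC5, MCM7, MCM10, CDC45, POLA2, POLE2, RFC3, RPA2 and RRM1. These controls also enter the comparisons with HME, so the values of a gene here and there are not independent.

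The neighbouring genes of the S phase and cell cycle programme, from lists chosen with earlier results of these data known, moved in part with them. Of 39 other fork genes, 33 were tested in HepG2, and 10 were called lower and 1 higher (30.3% and 3.03%, against 10.9% and 11.3% of all genes). Without control 2 the counts were again 10 and 1, though of partly other genes. Among the lower were ASF1B, a histone chaperone (25.3 ± 1.86 to 9.36 ± 3.53 CPM), UHRF1 (18.8 ± 6.62 to 7.23 ± 1.63 CPM), TIPIN, a fork protection factor (11.2 ± 2.44 to 4.40 ± 1.38 CPM), and the helicase RECQL4 (138 ± 106 to 48.1 ± 9.30 CPM), whose untreated libraries were widely spread and whose log2 change of −1.52 was −0.68 without control 2. CHTF18 and DSCC1, which work together in the alternative clamp loader, went from 15.7 ± 3.81 to 5.38 ± 3.34 CPM and from 22.2 ± 5.44 to 11.5 ± 0.287 CPM. The gene called higher was the topoisomerase TOP1, named after its values were seen (33.02 ± 20.5 to 80.5 ± 21.0 CPM). In Ls174, 3 of 35 were called lower (ASF1B, WDHD1 and DBF4; 8.57%, near the 7.85% of all genes) and 0 higher, and ASF1B lost the call without control 1. The median log2 fold change of the list was −0.57 in HepG2 and −0.14 in Ls174.

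Regulators of the G1 to S passage were called lower in 7 and higher in 3 of 28 tested genes in HepG2. The shares were 25%, against 10.9% of all genes, and 10.7%, near the 11.3% of all genes. The CDK inhibitor CDKN1A (p21) rose from 241 ± 129 to 862 ± 176 CPM (1.84 ± 0.45, adjusted p = 0.059, edgeR) and CDKN2D from 16.6 ± 6.62 to 46.7 ± 3.02 CPM, while the CDK inhibitor CDKN2C fell from 9.09 ± 1.82 to 2.41 ± 0.816 CPM, the E2F partner TFDP1 from 131 ± 39.7 to 64.6 ± 3.50 CPM, FOXM1 from 44.8 ± 12.6 to 22.7 ± 7.02 CPM and the pocket protein RBL1 from 23.9 ± 4.78 to 8.61 ± 1.80 CPM, all at the limits of p and fold. E2F1, named after its values were seen, was also called lower (57.3 ± 13.1 to 34.2 ± 2.50 CPM), though not without control 2. E2F3, likewise named afterwards, went the other way. It was called higher, and also without control 2, where its log2 fold change was 0.74. In Ls174 CDKN1A was called higher at lower levels (51.6 ± 19.7 to 90.4 ± 6.51 CPM), and MYC, CDKN2C and RBL1 lower, of 30 tested (10.0% lower and 3.33% higher, near the shares of all genes). Without Ls174 control 1, MYC kept the call of these 4.

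In the fork checkpoint list, 4 of 17 genes were called lower and 2 higher in HepG2. The shares were 23.5%, against 10.9% of all genes, and 11.8%, near the 11.3% of all genes. Without control 2, 3 were lower and 2 higher (17.6% and 11.8%, against 10.1% and 14.1% of all genes). The kinase WEE1 rose from 24.4 ± 4.91 to 75.0 ± 5.73 CPM (1.61 ± 0.30, adjusted p = 0.0213, edgeR), and FANCD2 was lower (23.4 ± 6.77 to 7.63 ± 2.00 CPM). ETAA1, an activator of the kinase ATR, was lower at low levels (6.47 ± 1.43 to 0.709 ± 0.737 CPM). RAD9A and HUS1, partners in the checkpoint clamp, were called in opposite directions, RAD9A lower, a call lost without control 2, (7.37 ± 3.38 to 2.97 ± 0.949 CPM) and HUS1 higher (10.1 ± 6.01 to 24.2 ± 7.74 CPM). In Ls174, 1 of 16 genes was called (6.25%, below the 7.85% of all genes called lower), RAD9A, which was lower (15.8 ± 10.1 to 5.51 ± 0.778 CPM). In the list of other nucleotide genes, 2 of 16 were lower and 3 higher in HepG2. The shares were 12.5%, near the 10.9% of all genes, and 18.8%, against 11.3% of all genes. Without control 2, 4 were lower and 3 higher (25% and 18.8%, against 10.1% and 14.1% of all genes). MTHFD2, a mitochondrial folate enzyme, rose from 49.8 ± 7.47 to 152 ± 21.0 CPM in HepG2 (1.61 ± 0.30, adjusted p = 0.0208, edgeR) and from 171 ± 34.1 to 346 ± 74.2 CPM in Ls174 (adjusted p = 0.108, edgeR). SAMHD1, which breaks down dNTPs, was lower in HepG2 (37.98 ± 15.4 to 11.998 ± 3.64 CPM), and TK1, thymidine kinase, went from 46.3 ± 7.25 to 28.9 ± 2.63 CPM. RRM2B, the subunit of ribonucleotide reductase used outside S phase, was higher (8.998 ± 2.43 to 19.7 ± 1.31 CPM), as was SHMT2, a mitochondrial serine enzyme, in HepG2 (91.2 ± 4.28 to 172 ± 95.5 CPM) and in Ls174 (128 ± 20.7 to 207 ± 9.42 CPM), where the call was lost without control 1. Of 21 mitosis genes tested in HepG2, 5 were called lower and 1 higher (23.8% and 4.76%, against 10.9% and 11.3% of all genes). Without control 2, 10 were lower and 0 higher (47.6% and 0%, against 10.1% and 14.1% of all genes). With all controls, MKI67 fell from 126 ± 26.8 to 55.8 ± 2.62 CPM and PLK1 from 107 ± 19.7 to 52.1 ± 5.98 CPM. The phosphatase CDC25B fell from 139 ± 55.4 to 52.3 ± 2.91 CPM. The spindle motor KIF11 fell from 13.5 ± 2.37 to 6.18 ± 1.03 CPM and the spindle checkpoint kinase BUB1 from 16.3 ± 3.403 to 7.31 ± 4.38 CPM. PRC1, which bundles spindle microtubules, was the one called higher, with an SD above its treated mean (43.4 ± 28.2 to 182 ± 226 CPM). In Ls174 4 of 22 were lower (PLK1, CENPE, CDC20 and CCNB2, 18.2% against 7.85% of all genes) and 0 higher. Without control 1, 7 were lower (31.8% against 9.23% of all genes), CENPE and CDC20 among them. The median log2 fold change of the mitosis list was −0.56 in HepG2 and −0.34 in Ls174, against −0.71 and −0.11 for the 43 replication genes.

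Where the reads of the 43 genes fell was also read from the files. In 42 genes 1 region held over 50% of the counts and in 35 over 90%, and the main region lay mostly in annotated UTR in 38 genes. The main regions measured 294 to 5308 bases and had a GC content of 32.0 to 60.8%. In 7 genes a region overlapped a counted region of a gene on the other strand (ORC4, CDT1, GINS2, POLD2, RFC4, RFC5 and TYMS), and since the sources used here do not state how strand was counted, reads of the partners may not be separated there. In POLD2, whose region held 3152 counts, the partner AEBP1 held 71 counts over most of the same bases.

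**Figure D4:**
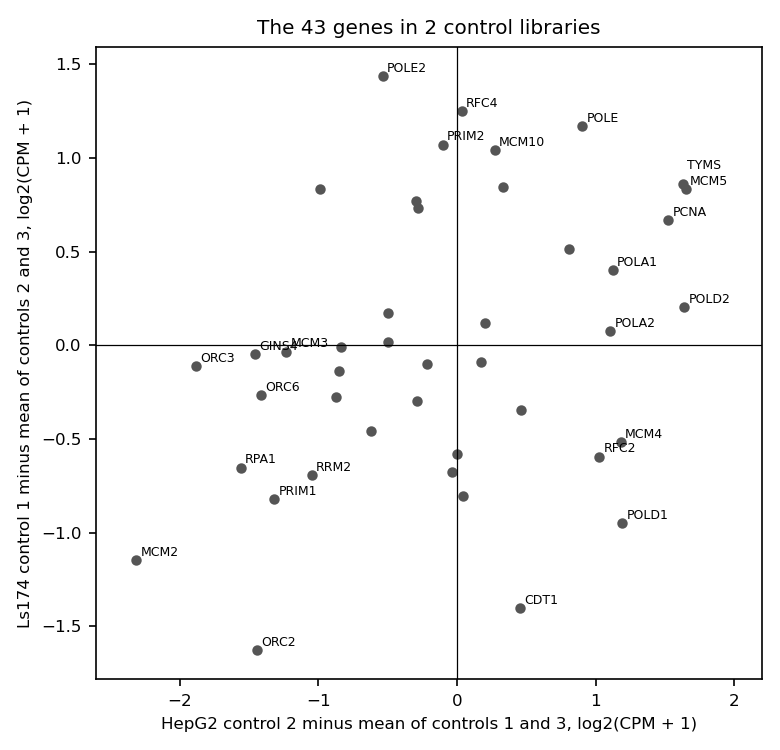
Difference of HepG2 control 2 from the mean of the other controls (horizontal axis) and of Ls174 control 1 from the mean of the other controls (vertical axis), both on the log2(CPM + 1) scale, for the 43 genes, with names where either difference exceeds 1. MCM2 and ORC2 were low by more than 1 in both libraries. MCM5, TYMS and PCNA were higher in both, but by less than 1 in Ls174 control 1. CDT1, POLD1 and POLE2 are examples that went opposite ways.

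Of the genes that differed by more than 1 in a control that stood apart, only MCM2 and ORC2 did so in both lines. MCM5, TYMS and PCNA were higher in both, but by less than 1 in Ls174 control 1. MCM2 was lower by 2.31 in HepG2 control 2 and by 1.15 in Ls174 control 1 on the log2(CPM + 1) scale, ORC2 by 1.44 and 1.63, while MCM5 was higher by 1.65 and 0.83, TYMS by 1.63 and 0.86, and PCNA by 1.52 and 0.67. Other genes went opposite ways in the libraries, such as CDT1 (0.46 and −1.40), POLD1 (1.19 and −0.95) and POLE2 (−0.53 and 1.44). The differences had the same sign in 28 of the 43 genes and correlated with Pearson r = 0.33 and Spearman rho = 0.31 over the 43 genes, which share libraries and are not replicates. The same correlation between HepG2 controls 1 and 3 and Ls174 controls 2 and 3 was r = 0.21 and rho = 0.21. The part of these libraries in the results beyond the values given with and without them was not tested.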

How the data were processed

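RNA was measured in 12 libraries, 3 untreated and 3 HME-treated of each of HepG2 and Ls174, grouped by the labels. The authors prepared 3′ end libraries with the QuantSeq kit for Ion Torrent, aligned the reads with HISAT2 to hg19 (GRCh37) and analysed them with metaseqR2; the labels also list Bowtie2 and Trimmomatic without their role. Versions and the treatment of strand and of reads with several alignments are not given in the sources used here. The deposited values are raw counts of reads per 3′ region, without normalization. Most main regions run about 200 bases past the annotated gene end.

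Counts were summed over the regions of each gene. Each line was fitted with edgeR 4.0.16 (R 4.3.3) by the quasi-likelihood test after filterByExpr and TMM scaling, with Benjamini-Hochberg adjustment over all genes tested; standard errors were taken from the fold change and the F statistic. Calls used an unadjusted p under 0.05 with a log2 fold change beyond 0.58 (up or down), the limits of the study, or an adjusted p under 0.05. The interaction was fitted over the 12 libraries, and the untreated lines over 6. A single gene in 3 against 3 libraries cannot go below p = 0.1 in an exact permutation test, so all p-values printed are model-based and measure the spread between libraries that the study calls biological replicates. Depth was 1790841 to 3656662 counts per library, so 3 counts, the limit that a count of 0 allows, came to 0.820 to 1.68 CPM before scaling; this covers counting error only. The fit was tested on simulated data with known changes.

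All 43 genes are accounted for, and values per library are given for those called in either line or in the interaction and for ORC1, PCNA and MCM2-7. From each list of neighbouring genes, up to 6 of those called with the smallest p were named. One gene of these lists is not reported here. The members and lists were chosen with earlier results of these data known. DESeq2 1.42.0, a binomial test (the study names one) run here on summed counts, other scalings and filters, a replicate block, 1 fit of all libraries and leaving out libraries were the alternatives. Promoters are from RefSeq (GRCh38.p14) and annotation from GENCODE on GRCh37; protein sequences were not used here.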

Additional observations from a re-analysis of the deposited data

Results flagged for a closer look

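The interaction test called 8 of the 43 genes at an unadjusted p under 0.05 and a difference beyond 0.58, all more negative in HepG2. That was 18.6%, against 5.75% of 13040 genes in that direction and 7.42% in the other. The difference in log2 fold change (HepG2 minus Ls174) was −1.24 in MCM4, −1.25 in MCM5, −1.05 in MCM6, −1.08 in GINS1, −1.80 in POLA2, −1.72 in RFC2, −1.49 in RFC4 and −1.15 in RFC5. None passed the adjusted p (edgeR, lowest 0.164), and 8 of the 43 had an unadjusted p under 0.05. MCM5, MCM6 and RFC4 lost the call in some of the fits that each left out 1 library. The difference of MCM5 was −0.58 without HepG2 control 2.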

How the results depend on the processing

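No sign was seen that the replicate numbers pair the libraries, though so few libraries cannot settle it. The deviations of same-numbered libraries from their group means correlated by −0.15, 0.07 and −0.12 in HepG2 and by −0.04, 0.01 and −0.06 in Ls174. Those of differently numbered libraries correlated by −0.15 to 0.26 in HepG2 and by −0.06 to 0.07 in Ls174. With the replicate block, 12 of the 43 genes were called at the limits of p and fold in HepG2 (15 without it), 0 in Ls174 (1), 6 in the interaction (8) and 4 between the untreated lines (13). All calls with the block were lower. They made 27.9% of the 43 in HepG2, against 8.09% of all genes called lower (10.9% without the block). The shares were 14% against 4.48% in the interaction and 9.3% against 11.2% between the untreated lines. In Ls174, 6.11% of all genes were called lower with the block.

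In HepG2 the binomial test on summed counts, which takes no account of the spread between libraries, called 30 genes at those limits and 38 by adjusted p. By adjusted p, DESeq2 called 6, library size scaling 1, the filter of at least 1 count 5 and 1 fit of all 12 libraries 7, where the main fit called 0. For these alternatives the shares of all genes by adjusted p are not given here. Leaving out 1 library gave 8 to 16 genes at the limits and 0 to 4 by adjusted p. In Ls174 the count at the limits was 0 with a log2 fold change beyond 1, 0 with DESeq2, 4 with the binomial test, 3 with at least 1 count, 2 with the main region only, 0 with 1 fit of all libraries and 0 to 5 without 1 library. The share called lower was 9.3% with the binomial test, against 15.8% of all genes. It was 0 to 11.6% without 1 library, against 4.71 to 9.23% of all genes. By adjusted p the count was 27 with the binomial test and 0 to 1 without 1 library. In the interaction the count at the limits was 5 to 11 without 1 library (11.6 to 25.6%, against 4.09 to 7.2% of all genes called lower). Without both controls that stood apart (chosen after seeing the data) it was 15, with 2 by adjusted p. The binomial test was not run for the interaction. Between the untreated lines the count at the limits was 7 with a fold beyond 1, 23 with the binomial test, 6 to 15 without 1 library, and by adjusted p 7 with DESeq2, 33 with the binomial test, 8 with library size, 6 with the upper quartile, 5 with at least 1 count, 1 to 6 without 1 library and 15 without both controls. At the limits, the share called lower was 48.8% with the binomial test, against 33.3% of all genes. It was 14 to 27.9% without 1 library, against 11 to 16.8% of all genes, and 30.2% without both controls, against 22.9%.

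The median log2 fold change of the 43 genes kept its sign in every alternative. In HepG2 it was −0.88 with the binomial test, −0.86 with library size, −0.78 with the upper quartile and −0.70 to −0.60 without 1 library. With at least 10 counts in every sample, where 33 of the genes were tested, it was −0.53. In Ls174 it was −0.18 with the binomial test and −0.174 to −0.0686 without 1 library. In the interaction it was −0.60 with library size, −0.57 with the upper quartile, −0.55 with the main region only, −0.58 without both controls and −0.66 to −0.46 without 1 library, and between the untreated lines −0.68 with library size, −0.61 with the upper quartile, −0.35 without both controls and −0.51 to −0.32 without 1 library. Library size scaling moved the median of all genes in HepG2 from −0.04 to −0.20. The sum of the 43 genes, treated over untreated, was 0.570 in HepG2 and 0.865 in Ls174 with library size scaling.

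Changes that reversed were those of genes not called. MCM2 in HepG2 was 0.15 with the replicate block and −0.55 to 0.18 without 1 library, MCM3 in HepG2 −0.58 to 0.20, and in Ls174 MCM2 −0.47 to 0.15, MCM4 −0.23 to 0.050, MCM5 −0.42 to 0.053 and MCM7 −0.12 to 0.047 without 1 library. The cause of these differences was not tested. Depth limits the genes with under 20 counts in a library, ORC1, RFC4 and POLA2 among them. With at least 10 counts required in every sample, 33 of the replication genes were tested in HepG2. ORC1, POLA2, POLE, RFC1 and RFC4 were no longer among the calls there, and POLD1 was gained. Of these, ORC1, POLA2, POLE and RFC4 had fewer counts than that in a HepG2 library, so they were left out rather than tested. In the interaction, POLA2 and RFC4 were no longer among the calls with this filter.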
